A study of Homo sapiens with 4 samples.

Results

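The regions described here are the 204 CHD5 peaks on chromosomes 1 to 22 that touched a small H3K27me3 domain, out of 32250 autosomal CHD5 peaks and 32543 in the whole list. A domain was formed by joining H3K27me3 regions separated by up to 3000 bp. It was small if it measured at least 1000 bp and under 5000 bp, and a peak that also touched a domain of 5000 bp or wider was not taken. The positions of both lists therefore chose these peaks, and that they touch a small domain is not a result.

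All libraries came from SH-SY5Y, an established human neuroblastoma cell line, kept in 10 uM retinoic acid for 8 days, which gives the cells neuron-like features. One library each was made from a streptavidin pull-down of cells expressing FBio-CHD5, from an H3K27me3 precipitation of the same FBio-CHD5 cells, from a streptavidin pull-down of Fbio-Ctrl cells, and from input DNA of FBio-CHD5 cells. CHD5 was thus read through a tagged, introduced protein, and what drives its expression is not given in the labels. Region lists of the first 2 libraries were used, and the other 2 libraries were not analysed here. With 1 library per group no difference between conditions could be tested and no replicate error exists. The lists carry no read counts, so depth is unknown, and all intervals cover counting error only and treat regions as independent. The lists hold positions and no expression, so the cell type could not be checked against markers.

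CHD5 is a chromodomain helicase that moves nucleosomes and is found in complexes of the NuRD type, mainly in neurons and testis. Its gene lies in a chromosome segment that is often lost in neuroblastoma. H3K27me3 is laid down by Polycomb repressive complex 2 and read by CBX proteins of Polycomb repressive complex 1. It is known both as wide blankets over clusters of developmental genes and as short patches, often at single CpG-rich promoters. The small domains here were defined by joining and width alone, and whether they are of that short kind was not tested. Below, patch means only a small domain as defined above.

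CHD5 rarely met a small patch of H3K27me3, and the patches it met stood alone more often than the others. The 204 peaks were 0.633% of autosomal CHD5 peaks (Wilson 95% interval 0.552% to 0.725%). They touched 188 of the 9944 small domains, or 1.89% (1.64% to 2.18%). The overlap that placement at random would give was not computed. Another 407 autosomal CHD5 peaks touched a domain of 5000 bp or wider, 126 touched only domains under 1000 bp, and 31513 touched none. Pairing was close to one peak to one patch. None of the 204 touched more than 1 small domain, and 173 domains held 1 of these peaks, 14 held 2 and 1 held 3. By the joining rule domains lie more than 3000 bp apart, so a narrower peak could not touch 2 of them. Only 47 of the 204 peaks were 3000 bp or wider.

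The width limits cut through a continuous range. Just inside the upper limit were domains of 4845, 4918 and 4968 bp with CHD5, and just outside it domains of 5008, 5029 and 5042 bp. Just inside the lower limit were domains of 1000, 1024 and 1025 bp, and just outside it domains of 966, 975 and 997 bp.

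The peaks were unevenly spread over the chromosomes. Chromosome 17 held 30 of them, chromosome 7 held 27, chromosome 1 held 25 and chromosome 2 held 19, so that 101 of the 204 lay on these 4 chromosomes. Chromosomes 18 and 21 held 1 each. Chromosome 17 remained first when its number of CHD5 peaks or of small domains was taken into account. There 1.85% of CHD5 peaks (Wilson 95% interval 1.30% to 2.63%) were at a small domain, and 26 of 264 small domains, or 9.85% (6.81% to 14.0%), held such a peak. By small domains, chromosome 7 followed with 26 of 502, or 5.18% (3.56% to 7.48%), and chromosome 1 with 25 of 559, or 4.47% (3.05% to 6.52%). The lowest shares of small domains were 1 of 249 on chromosome 18, or 0.402% (0.0709% to 2.24%), 1 of 244 on chromosome 21, or 0.410% (0.0724% to 2.28%), and 6 of 1001 on chromosome 4, or 0.599% (0.275% to 1.30%). By CHD5 peaks the order differed. Chromosome 19 came next after chromosome 17 at 1.31% (0.711% to 2.39%), then chromosome 7 at 1.20% (0.823% to 1.73%). Chromosome 1 was at 0.713% (0.483% to 1.05%), an interval that holds the 0.633% of all autosomes.

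**Figure D1:**
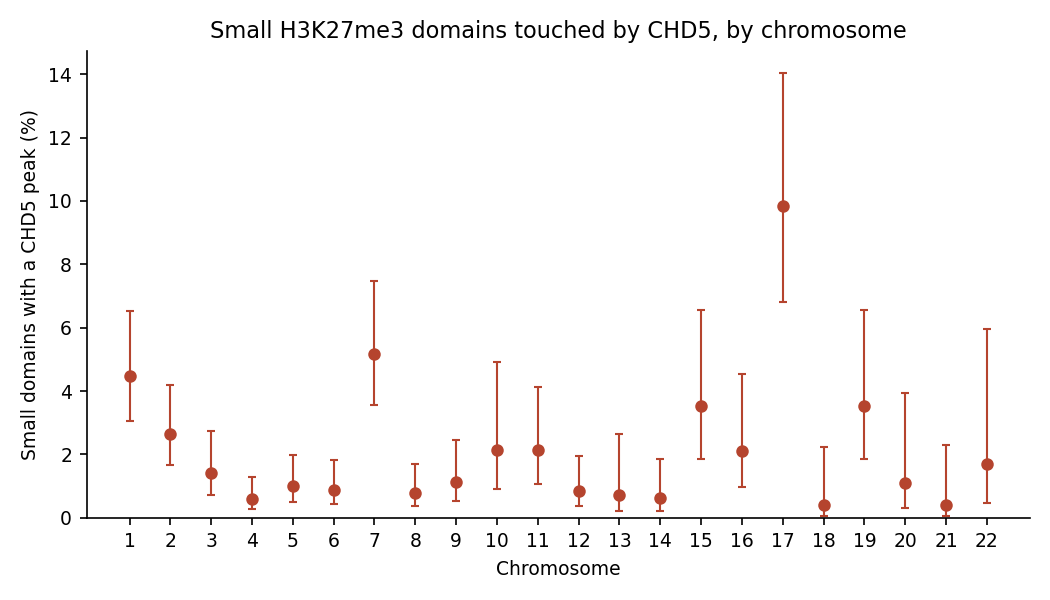
Share of small H3K27me3 domains (1000 to under 5000 bp) that held a CHD5 peak, in percent, on each autosome; points are shares and bars are Wilson 95% intervals, which cover counting error only. Chromosome 17 is highest at 9.85%, followed by chromosome 7 at 5.18% and chromosome 1 at 4.47%.

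On chromosome 17 they lay mostly in the distal long arm. After position 43000000, a boundary chosen after the positions had been seen, there were 26 of the 30 peaks. They made up 2.61% of the 995 CHD5 peaks there (Wilson 95% interval 1.79% to 3.80%), and 22 of 68 small domains held one, or 32.4% (22.4% to 44.2%). Up to that position, 4 of 196 small domains held one, or 2.04% (0.796% to 5.13%), and on the other autosomes 162 of 9680 did, or 1.67% (1.44% to 1.95%). The share was thus high in the distal segment and near that of the other autosomes in the rest of the chromosome. The distal segment held 995 CHD5 peaks beside its 68 small domains, against 624 beside 196 in the rest. DNA copy number was not measured in these lists. The cause of this difference, and of those between chromosomes, was not tested.

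A few loci held several of the peaks. Counting those within 100 kb of each other, 46 of the 204 fell into 21 groups, of which 12 were within 1 domain and 9 spread over 2 or more domains. Over all peaks with another on their chromosome, these groups included, the median distance to the next one of this kind was 2189 kb. The domain with 3 peaks was chr4:55095262-55098520, which was 3259 bp wide and made of 3 H3K27me3 regions. The peak chr4:55093115-55095379 lay over its left edge and shared 118 bp with it. The peak chr4:55096634-55097690 lay wholly inside, and chr4:55097706-55100536 lay over the right edge and shared 815 bp. CHD5 peaks were therefore called over both edges of this patch and within it. The inside peak ended 15 bp from the one over the right edge and scored 55.95, the lowest CHD5 score in the list being 50. Whether these neighbouring calls are separate sites was not tested. In the domains with 2 peaks, the peaks lay from 49 bp apart at chr12:49738385-49741314 to 2633 bp apart at chr2:241915849-241919855. Groups of 3 peaks over 2 domains were found at chr19:41103874-41111465, chr7:2715648-2729206 and chr17:72855942-72919351. The next 2 domains after that on chromosome 4, ordered by shared bases, were chr15:88797441-88801382 with 2904 bp and chr17:64959272-64962891 with 2750 bp in 2 CHD5 peaks each.

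The centres of both marks were compared next. CHD5 most often lay over an edge of the patch, with its centre to one side of the middle. No placement at random was computed for these counts, so whether edges were preferred was not tested. The centre of the CHD5 peak and that of the domain were a median of 939 bp apart (binomial 95% interval of the median 812.5 to 1104.5 bp), with quartiles of 543 and 1686 bp. They lay within 250 bp of each other in 25 of 204 cases, or 12.3% (Wilson 95% interval 8.44% to 17.5%), and within 500 bp in 49, or 24.0%. They were over 2000 bp apart in 30, or 14.7%.

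Placement fell into 3 classes. In 131 cases, or 64.2% (Wilson 95% interval 57.4% to 70.5%), the CHD5 peak lay over 1 edge of the domain. In 46 cases, or 22.5%, it lay wholly inside the domain, and in 27, or 13.2%, it spanned the domain from end to end. Peaks over an edge shared a median of 799 bp with their domain, or 36.0% of it, and their centres were a median of 1219 bp away from the domain's. The class followed width, as geometry requires. Peaks that spanned the domain had a median width of 4675 bp over domains of 1732 bp, while peaks inside had a median of 1166 bp in domains of 3622 bp. Those over an edge had a median of 1748 bp at domains of 2240 bp. The class also followed the CHD5 score, with medians of 260 for spanning peaks, 112 over an edge and 71.5 inside. The lowest CHD5 score in the list was 50, so many peaks inside a domain were weak calls. Of the 407 CHD5 peaks at wider domains, 327 lay inside, or 80.3% (76.2% to 83.9%), and 79 lay over an edge, or 19.4% (15.9% to 23.5%). Their domains had a median width of 16448 bp, so a peak inside is also what a wider domain favours.

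**Figure D2:**
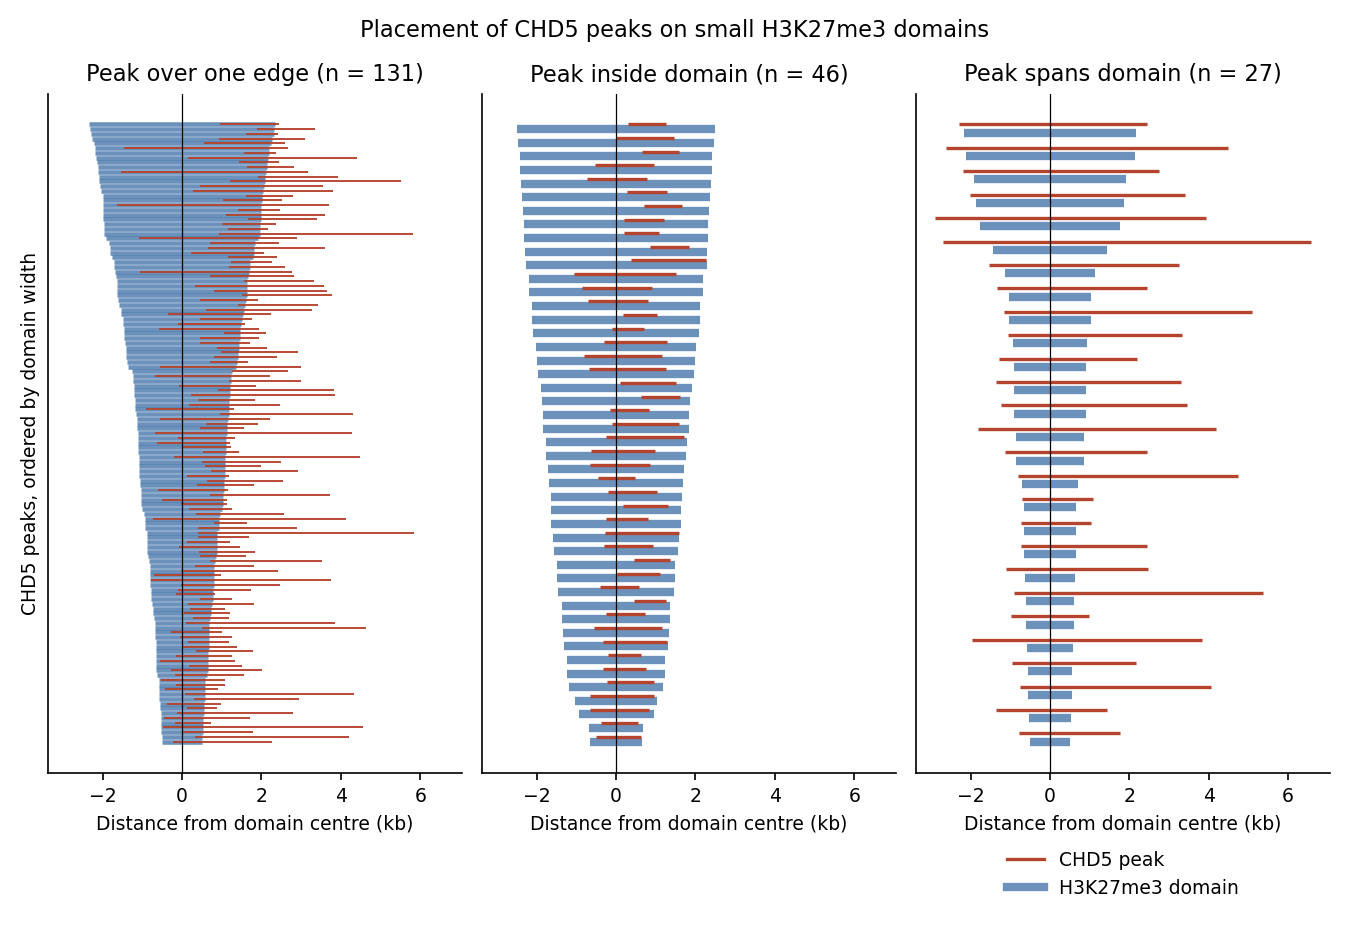
Each row is 1 of the 204 CHD5 peaks (red) drawn on its small H3K27me3 domain (blue), as distance in kb from the domain centre, in 3 panels by placement and ordered by domain width; rows are mirrored where needed so that the CHD5 centre lies to the right. The 131 peaks over 1 edge reach past the domain on the right, the 46 peaks inside are narrower than their domain, and the 27 spanning peaks exceed it on both sides.

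To set aside width, the distance between centres was divided by the largest distance at which both regions could still touch, which gives 0 for aligned centres and 1 for regions that only just meet. The median of this relative distance was 0.469 (binomial 95% interval of the median 0.382 to 0.526). If every touching position were equally likely the median would be 0.5, which lies inside this interval. From 0 to 0.25 there were 57 peaks, from 0.25 to 0.5 there were 56, from 0.5 to 0.75 there were 58, and above 0.75 there were 33. The first 3 ranges were thus filled almost evenly, with no pile-up at aligned centres. The outermost range held fewest, or 16.2% (Wilson 95% interval 11.8% to 21.8%). Equally likely positions would give it a share of 0.25, which lies above this interval. The medians for CHD5 peaks at wider domains, 0.455, and at domains under 1000 bp, 0.457, lay inside the interval of 0.382 to 0.526.

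The CHD5 peak covered the domain centre in 102 of 204 cases, or 50% (Wilson 95% interval 43.2% to 56.8%). Conversely, the centre of the CHD5 peak lay within the domain in 120, or 58.8% (52.0% to 65.4%). Both held for 75 peaks, or 36.8%, and neither held for 57, or 27.9%. Coverage of the centre was less frequent at wider domains, which geometry favours where CHD5 widths are similar. It was found for 36 of the 51 peaks with the narrowest domains, of 1000 to 1614 bp, or 70.6% (57.0% to 81.3%). It was found for 19 of the 51 with the widest, of 3695 to 4968 bp, or 37.3% (25.3% to 51.0%).

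Within a domain, CHD5 centres fell on H3K27me3 regions and on the gaps that joining had bridged about as often. Of the 120 CHD5 centres inside a domain, 58 fell in an H3K27me3 region, or 48.3% (Wilson 95% interval 39.6% to 57.2%), and 62 in a gap between regions. A domain begins and ends with an H3K27me3 region, so the 158 peaks over an edge or spanning the domain touched one by construction. Of the 46 peaks inside a domain, 34 touched an H3K27me3 region, or 73.9% (59.7% to 84.4%), and 12 lay in a gap only. H3K27me3 regions stood on both sides of the peak in 32 cases, or 15.7% (11.3% to 21.3%). A median of 24.2% of a CHD5 peak was covered by H3K27me3 regions.

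In 151 cases the domain had both regions that the peak touched and regions that it did not. The touched regions of these domains had a median authors' score of 95.3 and the untouched ones 78.6, taking the median within each domain first. Touched regions scored higher in 84 of the 151, or 55.6% (Wilson 95% interval 47.7% to 63.3%), and the strongest region of the domain was touched in 72, or 47.7% (39.9% to 55.6%). Of all regions in these domains 41.4% were touched. The first interval includes 50% and the second includes that share. That share pools regions over domains, while the strongest region was counted once per peak. Whether peaks favoured the strongest part of the patch was therefore not tested.

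The 10 best aligned peaks, by distance between centres over domain width, included both narrow peaks in the middle of wider patches and peaks that enclosed their patch. The closest was chr4:189931354-189933339, whose centre was 1 bp from that of the domain chr4:189931748-189932943, which it enclosed. Also enclosing theirs were chr1:153649611-153652397, 39 bp from the centre of a domain of 1041 bp, and chr7:64598498-64603236, 85.5 bp from the centre of a domain of 4324 bp. The other 7 lay inside. Of these, chr2:111367020-111368528 was 20.5 bp from the centre of a domain of 4778 bp, and chr13:61333398-61334342 was 15 bp from the centre of a domain of 3375 bp. These 2 peaks lay wholly in a gap between H3K27me3 regions and shared no base with one. On chr19:41103874-41105646 the distance was 23.5 bp, and on chr5:92946860-92948375 it was 39 bp. The remaining ones, chr12:49739282-49740253, chr17:72855942-72857436 and chr15:41220514-41222485, were 82, 100 and 170.5 bp from their centres. The last 3 each shared their domain with a further CHD5 peak, as did the one on chromosome 19.

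The small domains with CHD5 were more isolated than those without it. The 188 domains with CHD5 had their nearest other H3K27me3 domain at a median of 49.4 kb (binomial 95% interval of the median 28.4 to 71.9 kb). For the 9756 small domains without CHD5 the median was 5.63 kb (5.54 to 5.72 kb), which is close to the 3 kb below which regions were joined. No other domain lay within 100 kb of 69 of the 188, or 36.7% (Wilson 95% interval 30.1% to 43.8%), against 332 of the 9756, or 3.40% (3.06% to 3.78%). None lay within 500 kb of 16 of the 188, or 8.51%, against 53 of the 9756, or 0.543%. The number of other domains within 100 kb had a median of 1 around domains with CHD5 and 11 around those without.

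Most autosomal CHD5 peaks, 31513 of 32250, touched no H3K27me3 domain, so small domains with a CHD5 peak nearby were looked at separately. Among small domains without CHD5, 1509 had a CHD5 peak within 50 kb, and their nearest other domain was at a median of 7.05 kb (6.57 to 7.74 kb). None lay within 100 kb of 209 of these, or 13.9% (12.2% to 15.7%). The 8247 with no CHD5 peak within 50 kb had a median of 5.51 kb and a share of 1.49%. Domains touched by CHD5 were thus the most isolated of the 3 groups, and those merely near CHD5 lay between. The groups were not matched for the number of CHD5 peaks around them.

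**Figure D3:**
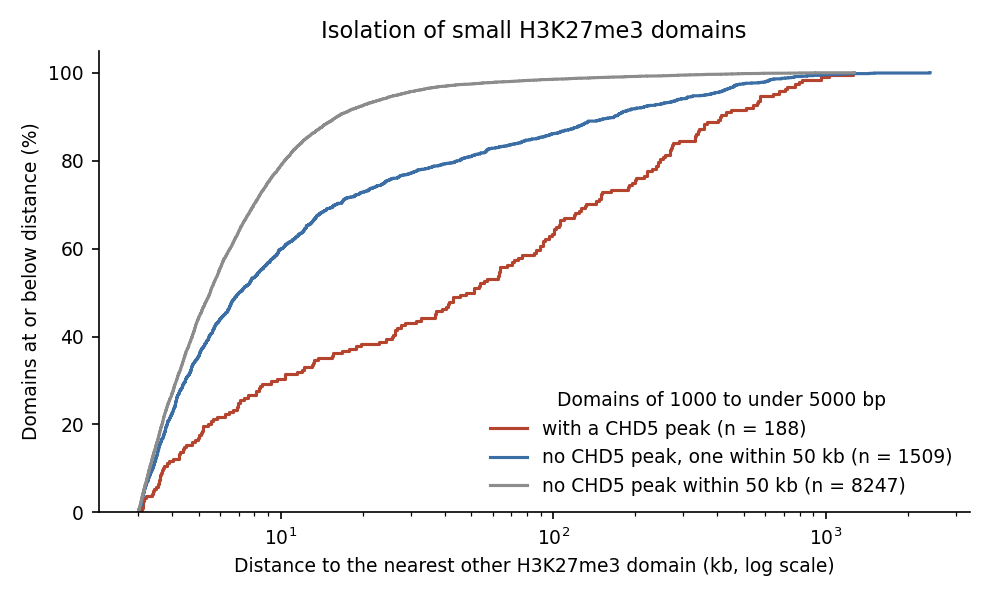
Cumulative share of small H3K27me3 domains, in percent, against the distance to the nearest other H3K27me3 domain in kb on a log scale, for 188 domains with a CHD5 peak (red), 1509 without one but with a CHD5 peak within 50 kb (blue) and 8247 with none within 50 kb (grey). The red curve runs lowest over most of the range, with a median of 49.4 kb against 7.05 and 5.51 kb.

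Read the other way, the more isolated a small domain was, the more often it held CHD5. Of 7464 small domains with another domain within 10 kb, 57 held CHD5, or 0.764% (Wilson 95% interval 0.590% to 0.988%). Of 2079 whose nearest domain was 10 to 100 kb away, 62 did, or 2.98% (2.33% to 3.80%). Of 401 with no domain within 100 kb, 69 did, or 17.2% (13.8% to 21.2%). The order was the same where only small domains touched by CHD5 or with a CHD5 peak within 50 kb were counted, at 57 of 961, 62 of 458 and 69 of 278, or 5.93%, 13.5% and 24.8%. It also held over chromosomes 1, 7 and 17, with 2.43%, 10.3% and 32.1%, and on the other autosomes, with 0.510%, 1.97% and 13.2%. Joining matters to the size of the contrast. With regions joined only across 1000 bp the medians were 2.38 kb with CHD5 and 1.56 kb without, a ratio of 1.52 in place of 8.76, and with joining across 10000 bp they were 105 and 17.3 kb.

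Wide domains were also farther away. A domain of 5000 bp or wider lay at a median of 402 kb from the domains with CHD5 (300 to 670 kb) and at 18.6 kb from those without (17.8 to 19.4 kb). None lay within 100 kb of 137 of the 188, or 72.9% (66.1% to 78.7%), against 17.6% of those without.

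The domains with CHD5 were also denser. H3K27me3 regions filled a median of 49.9% of their length (binomial 95% interval of the median 42.7% to 56.1%), against 31.7% (31.3% to 32.1%) in small domains without CHD5. The highest region score in a domain had a median of 166 (145 to 193) with CHD5 and 104 (103 to 106) without. Total width was similar, with overlapping intervals, at 2376 bp (2185 to 2739 bp) with CHD5 and 2576 bp (2538 to 2609 bp) without. The median number of H3K27me3 regions was 3 in both. Small domains without CHD5 but with a peak within 50 kb had 34.1% of their length filled and a median highest score of 111, which were nearer to the other domains without CHD5. Filled length and highest score were not split by chromosome. Chromosomes 1, 7 and 17 held 77 of the 188 domains with CHD5 and 1248 of the 9756 without.

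The 10 most isolated peaks belonged to 9 domains and showed every kind of placement. The most isolated domain, chr4:41747561-41751478, had no other within 1253 kb and was met over its right edge by chr4:41750457-41755346, 4890 bp wide. Next came the domain with 2 peaks on chromosome 17 from above, with 1029 kb of free space, met on its 2 edges by chr17:64959008-64960854 and chr17:64961725-64964683. The peaks chr11:64510576-64512333 and chr2:46523266-46528680 spanned their domains, at 961 and 799 kb from the next. The peak chr7:29603811-29606380 lay inside its domain, 709 kb from the next. The others, over an edge and between 670 and 815 kb from the next domain, were chr7:131241507-131243796, chr18:49865807-49867544, chr12:95265252-95266014 and chr2:225905956-225907036.

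Placement of CHD5 varied little with the isolation of the domain. The relative distance between centres had a median of 0.439 for the 74 peaks whose domain had no other within 100 kb, 0.437 for the 70 at 10 to 100 kb and 0.515 for the 60 with another domain within 10 kb. Their binomial intervals overlapped, at 0.335 to 0.541, 0.282 to 0.549 and 0.342 to 0.627. CHD5 width had medians of 1672, 1766 and 1755 bp in the same order. Across the 204 peaks the relative distance and the distance to the nearest domain had a Spearman rho of -0.0766 and a Pearson r of -0.0494, given as a description over sites that share 2 libraries. The strongest H3K27me3 region of the domain did vary, with median scores of 161, 277 and 129.

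The width of the CHD5 peaks was the last feature considered. Width is not independent of how the peaks were chosen, since a wider peak touches a domain more easily. The median width of the 204 peaks was 1723.5 bp (binomial 95% interval of the median 1509 to 1875 bp), with quartiles of 1227 and 2850.5 bp and a range from 763 to 9259 bp. It was 2003.5 bp (1767 to 2217 bp) for CHD5 peaks at domains under 1000 bp, 1494 bp (1429 to 1603 bp) for those at wider domains and 1652 bp (1640 to 1662 bp) for those at none. The medians of peaks at small domains and at none thus lay within counting error of each other.

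The upper end of the widths did differ over all autosomes pooled, with more wide peaks than among peaks at no domain. The interval overlapped those of peaks at domains under 1000 bp and at wider domains, and the differences from these 2 groups were not tested. Peaks of 3000 bp or more made up 47 of the 204, or 23.0% (Wilson 95% interval 17.8% to 29.3%), against 19.0% (13.1% to 26.8%) at domains under 1000 bp, 15.7% (12.5% to 19.6%) at wider domains and 13.7% (13.3% to 14.1%) at none. Peaks under 1000 bp made up 28 of the 204, or 13.7% (9.67% to 19.1%), against 5.56% (2.72% to 11.0%) at domains under 1000 bp, 15.2% (12.1% to 19.0%) at wider domains and 10.5% (10.2% to 10.9%) at none. Among all autosomal CHD5 peaks of 5000 bp or more, 12 of 878 were at a small domain, or 1.37% (0.784% to 2.37%), and among those from 2000 bp to under 3000 bp 31 of 7023 were, or 0.441% (0.311% to 0.626%). Of those under 1000 bp, 28 of 3421 were, or 0.818% (0.567% to 1.18%). The share of narrow peaks was within counting error of that at no domain.

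**Figure D4:**
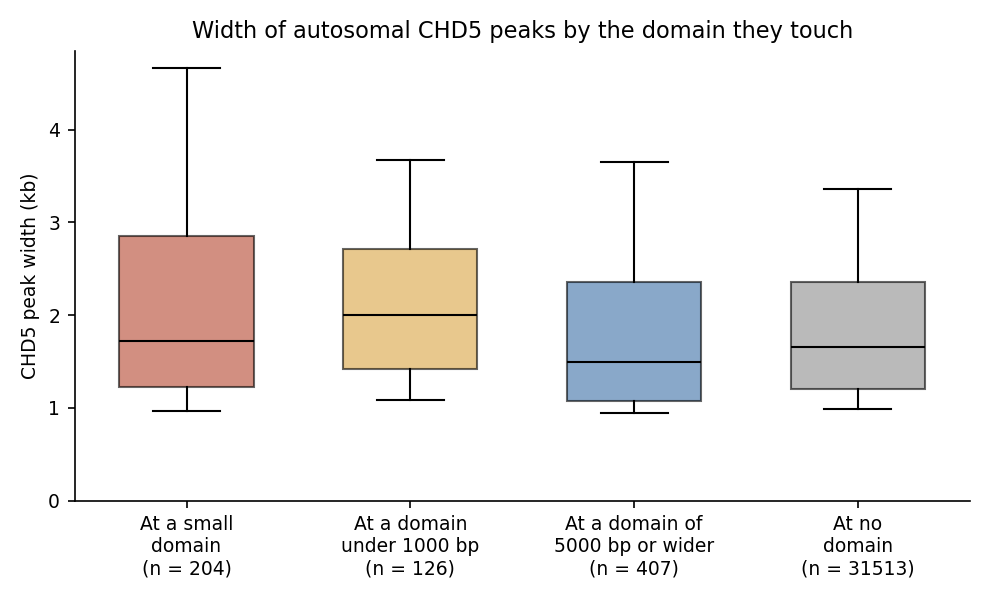
Width in kb of autosomal CHD5 peaks grouped by the H3K27me3 domain they touch: 204 at a small domain, 126 at a domain under 1000 bp, 407 at a domain of 5000 bp or wider and 31513 at none; boxes show the quartiles with the median as a line, and whiskers the central 80% of peaks. The upper whisker of peaks at small domains reaches 4672 bp, against 3356 bp for peaks at no domain, while the medians are 1723.5 and 1652 bp.

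Chromosomes 1, 7 and 17, which hold 82 of the 204 peaks and 7100 of the 31513 at no domain, carry wider CHD5 peaks in general. There the median at small domains was 2543 bp (binomial 95% interval of the median 1875 to 2920 bp), against 2105 bp (2074 to 2132 bp) at no domain. On the other autosomes it was 1454.5 bp (1302 to 1619 bp) against 1552 bp (1541 to 1563 bp). The difference between peaks at small domains and at none thus changed direction between these sets of chromosomes, and on both sides the intervals overlapped. Peaks at wider domains had medians of 2177 and 1250 bp in the same 2 sets.

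Wider patches did not carry wider CHD5 peaks. Across the 204 pairs, CHD5 width and domain width had a Spearman rho of -0.146 and a Pearson r of -0.104, as a description over sites that share 2 libraries. The CHD5 peak was wider than its domain in 75 cases, or 36.8%. The median CHD5 width was 1795 bp at the 51 narrowest domains and 1509 bp at the 51 widest, where the median domain widths were 1301 and 4222 bp.

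**Figure D5:**
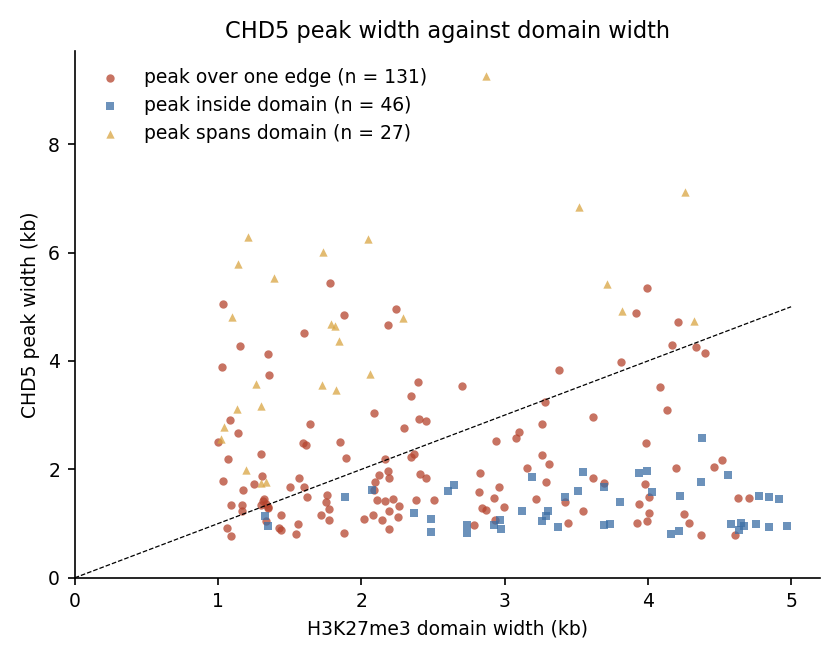
CHD5 peak width in kb against the width in kb of the small H3K27me3 domain it touched, for the 204 peaks, by placement; the dashed line marks equal widths. The 75 peaks above the line are wider than their domain, and widths of CHD5 do not follow those of the domains.

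The 3 widest peaks all spanned their domains. They were chr17:8020562-8029820 with 9259 bp over a domain of 2869 bp, chr17:50231893-50239005 with 7113 bp over 4258 bp, and chr11:14993073-14999911 with 6839 bp over 3522 bp. The 3 narrowest lay over an edge and were chr12:95265252-95266014 with 763 bp, chr11:71320193-71320981 with 789 bp and chr19:41106304-41107094 with 791 bp.

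CHD5 scores at small domains lay between those at wider domains and at none, within counting error of both. The median authors' score was 108 (binomial 95% interval of the median 90.8 to 124), against 95.6 (86.2 to 104) at wider domains and 118 (117 to 119) at none. Score and width had a Spearman rho of 0.736 among the 204 and of 0.749 over the 32250 autosomal peaks, as a description over sites of 1 library. CHD5 score and the highest H3K27me3 score of the domain had a rho of 0.173.

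The 10 highest scores among the 204 included peaks that spanned their patch and peaks that met only its rim. The highest, 1342, belonged to the widest peak above. Peaks that also enclosed their domain were chr4:189365860-189370789 with a score of 868 over 3817 bp of domain, chr11:14993073-14999911 with 754, and chr2:46523266-46528680 with 526 over 3712 bp. Others covered much of it, namely 70.4% by chr3:54156826-54160365 with a score of 638, 86.8% by chr1:202610366-202615089 with 633 and 97.4% by chr17:48639516-48644563 with 499.8. Among these 10 the smallest overlaps were 12.3% of the domain by chr2:136869351-136872283, which scored 1002, and 20.8% by chr11:27738235-27742537, which scored 618. The peak at the most isolated domain, chr4:41750457-41755346, scored 470 and covered 26.1%. A high CHD5 score thus went with wide overlap at some loci and with a shared border at others.

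Other CHD5 peaks lay closer to the 204 than to peaks at wider domains. The nearest other CHD5 peak was at a median of 12.5 kb (binomial 95% interval of the median 8.57 to 18.9 kb), against 29.6 kb (21.5 to 37.9 kb) for peaks at wider domains and 10.7 kb (10.4 to 11.0 kb) for those at none. No other CHD5 peak lay within 50 kb of 49 of the 204, or 24.0% (Wilson 95% interval 18.7% to 30.3%), against 38.8% (34.2% to 43.6%) at wider domains and 17.4% at none. By the median the 204 were within counting error of peaks at no domain, and by this share they lay between both groups.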

How the data were processed

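Each of the 2 lists used holds MACS peak calls from 1 library, per the file headers, in hg19, per the submitters' processing notes. Sites were captured by chromatin immunoprecipitation on streptavidin beads or with the antibody, per the labels' protocols. Aligner, MACS version, threshold and background library were not given in the sources used here. Each region carries a score that was made by the authors' peak caller and deposited without a stated scale, the lowest CHD5 score being 50, so it was compared only within a list. MACS builds narrow peaks and splits a broad mark, so domain widths and isolation depend on joining.

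Joining, overlap by at least 1 bp and distances between ends were computed with Python 3.11.15, numpy 2.4.6, pandas 2.3.3 and scipy 1.17.1, plotted with matplotlib 3.10.9, tested on simulated data and checked with bedtools 2.31.1, which also gave 33793 autosomal domains and 204 peaks. Coordinates count from 1. A peak was paired with the domain that shared most bases. Intervals are 95% Wilson intervals of shares and exact binomial order-statistic intervals of medians. Named loci are the 10 peaks highest in score, the 10 best aligned, the 10 most isolated, the 3 widest, the 3 narrowest and the 3 domains with most peaks. Ties were ordered by width for score, by shared bases for alignment and domains, and by score for isolation and width. Members and lists were chosen with earlier results of these data known. The gene tables at hand belong to another build, so no gene names, promoters or sequences are given. Alternatives varied joining, widths, overlap, scores, chromosomes, pairing and the definition of the centre.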

Additional observations from a re-analysis of the deposited data

How the results depend on the processing

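Of 15 alternatives, 10 left the number of CHD5 peaks at small domains between 157 and 262, against 204. It was 126 with domains from 1000 bp to under 3000 bp, 134 with domains from 2000 bp to under 5000 bp, 81 when at least 50% of the domain had to be covered, 93 with CHD5 scores at or above the median and 122 without chromosomes 1, 7 and 17. Each of these settings admits fewer peaks or domains. The median distance between centres stayed between 837.5 and 1064 bp in 13 of 16 alternatives. It was 1123 bp with joining across 1000 bp, 683 bp with 50% of the domain covered and 1185 bp with the higher CHD5 scores. The share of peaks covering the domain centre stayed between 44.3% and 56.3% in 13 of 16. It was 42.5% with domains from 2000 bp to under 5000 bp, 63.4% with the higher CHD5 scores, and 100% where 50% of the domain was covered, which fixes it. The median distance to the next domain stayed between 36.9 and 63.5 kb in 11 of 15. It was 2.38, 81.0 and 105 kb with joining across 1000, 5000 and 10000 bp, and 136 kb when only neighbours of at least 1000 bp counted, where small domains without CHD5 had 8.16 kb. The median CHD5 width stayed between 1613.5 and 1766 bp in 12 of 15. It was 2532 bp with 50% of the domain covered, 2787 bp with the higher CHD5 scores and 1454.5 bp without chromosomes 1, 7 and 17. Except where stated, the cause was not tested. The limit on neighbours and the count of 1 peak per domain were chosen after the data were seen. No paired analysis was possible because each group has 1 library, and for the same reason no library could be left out. Annotation and base composition of the loci were not run for want of a genome of the build.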
